A study of Mus musculus with 4 samples.

Results

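Guidance cue genes were taken by symbol from single-cell counts of the embryonic mouse kidney: the semaphorins and plexins, the Slits and Robos, the netrins and the receptors named Unc5, and the ephrins and Eph receptors. Of the 27932 genes counted in any library, 67 matched, and all 67 were listed in every library's table. They comprised 20 semaphorins, 9 plexins, 3 Slits, 4 Robos, 4 netrins, 5 genes named Unc5, 9 EphA and 5 EphB receptors, 5 ephrin-A and 3 ephrin-B ligands. Unc5cl is among the Unc5 genes by its symbol, although it is a death-domain protein and not a netrin receptor. The match used symbols alone, but the families were chosen with earlier results of these data known. Kidneys of E14.5 mouse embryos were dissociated and profiled with Drop-seq, which catches single cells in droplets with barcoded beads and sequences the 3′ ends of their transcripts. There were 2 wildtype libraries and 2 mutant libraries, the mutants labelled -/- for Hoxa9, Hoxa10 and Hoxa11 and likewise for Hoxd9, Hoxd10 and Hoxd11, and both genotypes were on a mixed strain background of mostly CD-1 and 129. These Hox genes belong to the Abd-B class, and the study asked what their reduced function does to kidney cell lineages. The labels do not say whether the libraries of a genotype came from different embryos, so p-values measure only the spread between libraries.

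Guidance cues were first described as signals that steer growing axons, and all 4 systems also act in organs outside the nervous system. Secreted class 3 semaphorins bind neuropilins paired with plexins, Slits bind Robos, netrins bind Dcc, Neo1 and Unc5 receptors, and ephrins sit on the cell surface and signal both into the Eph-bearing cell and back into their own. In the kidney, Slit2 and Robo2 are known for restricting where the ureteric bud grows out, Sema3a for limiting bud branching and vessel growth, and ephrin-B2 with Ephb4 for the assembly of arteries and veins.

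After filtering, 1851 and 4788 wildtype cells and 810 and 4329 mutant cells were kept (replicates 1 and 2 in each case), with median depths between 2393.5 and 3597 counts per cell. Before filtering, a mitochondrial share above 10% was found in 7.76% and 9.06% of wildtype barcodes and in 19.6% and 29.1% of mutant barcodes. At most 3 barcodes of a library occurred in another. All 6 Hox genes of the genotype were counted in every library, between 19.96 and 197 counts per 1000000 counts (CPM), so these 3′ counts do not check the genotype labels. Cells were placed in a lineage by their marker counts, with no guidance gene among the markers, and the lineages are called by the marker list, meaning "-like" throughout. The stroma gate, for the interstitial cells around the nephrons, took 505 and 1022 wildtype cells and 399 and 2036 mutant cells. The nephron progenitor gate took 305 and 682 wildtype cells against 1 and 13 mutant cells, so progenitors could not be compared between genotypes. The 67 genes had 61096 counts in all, 0.118% of the total, from 11 for Ntn5 to 6223 for Efnb1, and 10 of them had under 100. Levels are given as CPM of the counts summed per library and lineage, and since 3′ counts are not divided by length, levels are compared within a gene. CPM over all kept cells was higher in wildtype 1 than in wildtype 2 for 70.1% of the 67 genes and for 64.4% of all genes with 10 or more counts.

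Levels of cues and receptors differed between lineages, and several genes were high in more than a single lineage. In the 5 lineages with at least 25 cells in every library, 47 of the 67 genes passed the filter on low counts. A gene was called in a lineage at an adjusted p of at most 0.05 in edgeR's quasi-likelihood test and a change of at least 1 on the log2 scale against the mean of the other lineages. In stroma, 15 of the 47 were called higher and 6 lower, where 10.2% of all 11012 genes tested were called higher and 7.44% lower. In endothelium 14 were higher and 23 lower, against 10.1% and 12.6% of all genes. In ureteric bud and collecting duct 17 were higher and 7 lower, against 8.57% and 5.23%. In loop and distal tubule 12 were higher and 9 lower, against 8.77% and 5.46%, and in early nephron 8 were higher and 5 lower, against 5.1% and 6.76%. The share of the guidance genes called was above that of all genes in each of the 5 lineages and in both directions. The median log2 difference of the 47 genes from the other lineages ran from -0.996 in endothelium (-0.04 over all genes tested) to 0.59 in stroma (0.01 over all genes tested). Of 28 tested genes of a list of co-receptors and signalling partners, 8 were higher and 2 lower in stroma, and 10 were higher and 8 lower in endothelium.

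**Figure D1:**
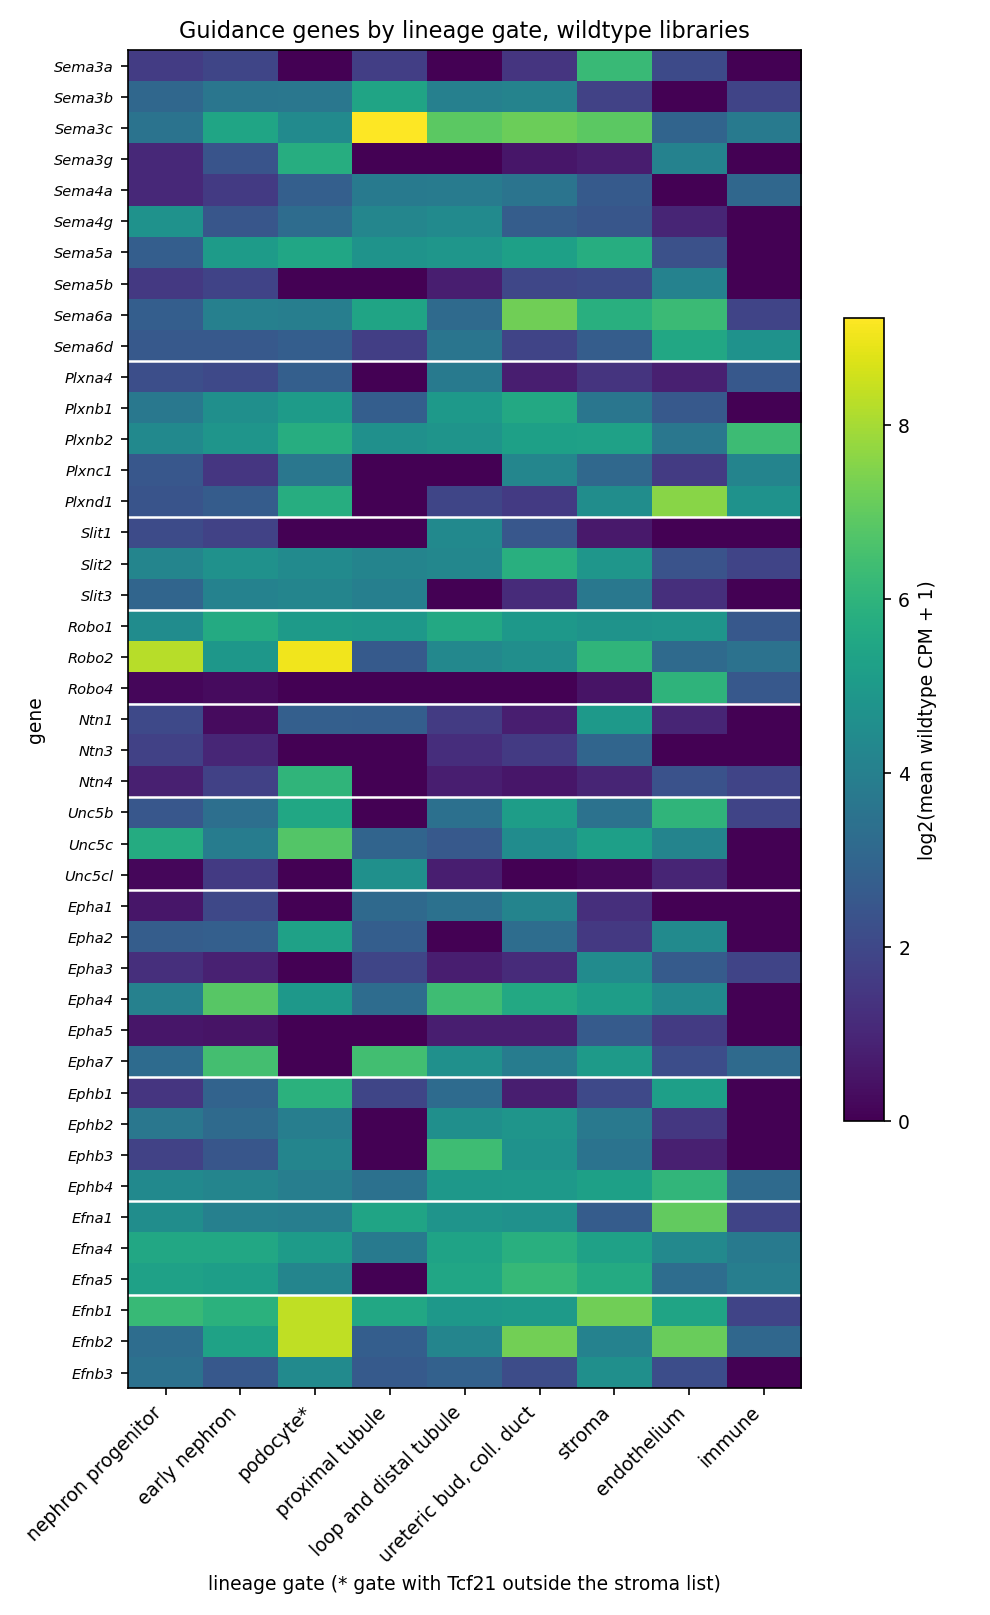
Levels of the named guidance genes (rows, grouped by family) in 9 lineage gates (columns), as log2 of the mean CPM of the 2 wildtype libraries plus 1; the color scale runs from dark at 0 to yellow. Robo4 and Plxnd1 stand out in endothelium, Sema3a in stroma, Sema3c in proximal tubule, and Robo2 in nephron progenitors and podocytes, the latter gated with the gene Tcf21 kept out of the stroma list.

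Among the ligands, Sema3a, a secreted repellent, was at 89.2 and 61.2 CPM in wildtype stroma and at 60.1 and 114 CPM in mutant stroma. It was at 7.13 CPM or less in early nephron in every library and at 2.32 CPM or less in loop and distal tubule. The stromal difference from the other lineages was 5.23 (SE 0.18) on the log2 scale, edgeR adjusted p = 3.99e-27, the largest among the genes called higher in stroma. Ntn1, the founding secreted netrin, was also called higher in stroma (log2 difference 3.94, edgeR adjusted p = 1.51e-11), as was the membrane ligand Efnb1 (1.96, edgeR adjusted p = 2.13e-21). Efnb1 was at 126 and 169.9 CPM in wildtype stroma and at 162 and 249.99 CPM in mutant stroma. Ntn1 was concentrated in cortical stroma, the outer stroma gated by Foxd1 and its companions, at 48.9 and 55.6 CPM in wildtype, against 23.3 and 25.4 CPM in wildtype matrix stroma, gated by Lum, Dcn, Postn and Ogn; this difference within stroma was not tested.

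Slit1, one of the 3 secreted Slits, was called higher in loop and distal tubule, at 20.9 and 18.9 CPM in wildtype and 41.2 and 13.9 CPM in mutant, and was at 0.838 CPM or less in stroma (log2 difference 3.81, edgeR adjusted p = 3.77e-09). Slit3 had its call in early nephron and in stroma, and Slit2 in stroma and in ureteric bud and collecting duct. The 3 Slits were thus called higher in partly different lineages. Sema3c, a secreted semaphorin known for its part in heart outflow and vessel formation, had its highest wildtype level in proximal tubule, at 707 and 489 CPM. Wildtype levels of Sema3c were 131 and 104 CPM in stroma and 164 and 121 CPM in ureteric bud and collecting duct. In a comparison of 8 lineages in the wildtype libraries alone, added after the data were seen, its proximal tubule difference was 3.94 on the log2 scale, edgeR adjusted p = 7.01e-39, from 33 and 39 cells, where 10.2% of all genes were called higher.

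Ephrin-B2 (Efnb2), the arterial member of the ephrin-B family, was called higher in 2 of the 5 lineages. It was at 207 and 98.3 CPM in wildtype ureteric bud and collecting duct and at 181 and 92.9 CPM in wildtype endothelium. In mutants it was at 173 and 315.5 CPM in the first and at 187 and 209 CPM in the second. Stroma lay far below both, at 22.0 and 9.71 CPM in wildtype. Efna1, a ligand of the EphA receptors, was called higher in endothelium, at 124 and 129 CPM in wildtype and 229.9 and 139 CPM in mutant (log2 difference 3.38, edgeR adjusted p = 2.15e-23), and lower in stroma.

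Among the receptors, Robo4, the endothelial Robo, was at 65.1 and 61.6 CPM in wildtype endothelium and at 91.0 and 106 CPM in mutant endothelium, and its difference of 8.54 on the log2 scale was the largest called for endothelium (edgeR adjusted p = 6.9e-24). Because its counts elsewhere were near 0, the size of that difference depends on the prior count of the fit. Plxnd1, a semaphorin receptor of vessels, was at 212 and 171.0 CPM in wildtype and 172 and 286 CPM in mutant endothelium. The netrin receptor Unc5b (83.6 and 46.9 CPM in wildtype, 144 and 72.3 CPM in mutant) and the ephrin-B receptor Ephb4 (48.0 and 85.5 CPM in wildtype, 38.3 and 97.3 CPM in mutant) were called higher in endothelium too. Endothelium therefore held ligand and receptor of the ephrin-B2 and Ephb4 pair, both called higher there.

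Several Eph receptors were called higher in 1 or more of the epithelial lineages, which were not tested against each other. Epha7 was at 95.3 and 81.0 CPM in wildtype early nephron and at 121 and 163 CPM in mutant early nephron, with a log2 difference of 2.79 from the other lineages (edgeR adjusted p = 4.35e-19). Epha4 was called higher there as well, at 105 to 118 CPM in 3 libraries and 83.1 CPM in mutant 1, and in loop and distal tubule (1.10, edgeR adjusted p = 0.000286). Ephb3 was called higher in loop and distal tubule, at 123 and 40.7 CPM in wildtype and 96.0 and 54.6 CPM in mutant, with a log2 difference of 3.75 (edgeR adjusted p = 4.99e-16), and in ureteric bud and collecting duct (1.80, edgeR adjusted p = 1.23e-05). Epha1 was highest in ureteric bud and collecting duct among wildtype gates (17.5 and 16.5 CPM) and was called higher in this lineage and in loop and distal tubule. Epha3, by contrast, was called higher in stroma (log2 difference 3.92), at 15.6 and 26.2 CPM in wildtype. These calls were made on both genotypes together with library as a block. In the wildtype fit described above, Epha4 was called higher in ureteric bud and collecting duct too (1.66, edgeR adjusted p = 0.0014).

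Robo2, the receptor of Slits in kidney outgrowth and in podocytes, had its highest levels outside these 5 lineages. Wildtype nephron progenitors were at 370.5 and 225 CPM, and the wildtype fit of 8 lineages put this 4.16 above the other lineages on the log2 scale (edgeR adjusted p = 2.15e-56), where 6.35% of 11559 genes were called higher. Podocytes, the filtering cells of the glomerulus, were at 678 and 371 CPM in wildtype and at 326 and 789.6 CPM in mutant. That gate was added after the data were seen, with Tcf21 outside the stroma list because podocytes express it, and it held 27 and 41 wildtype and 7 and 204 mutant cells. In mutant 1 of that gate, 3 counts equal 163 CPM, so its Robo2 level rests on few counts. Efnb1 (362 and 284 CPM in wildtype), Efnb2 (433 and 214 CPM) and Unc5c (129 and 86.9 CPM) were also at their highest in wildtype podocytes among the gates plotted. Ntn4, a laminin-like netrin, was at 105 and 23.2 CPM in wildtype podocytes, from 9 and 4 counts. With 7 cells in mutant 1, podocytes were not tested between genotypes, and their wildtype difference from other lineages was not tested. Of the named receptors outside the families, Nrp1 was counted in every gate, while Dcc had 22 counts over all kept cells and Neo1 had 980.

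In stroma, mutant and wildtype differed past the test in a single guidance gene. Of the 67 genes, 46 passed the filter, and Sema3c fell while no gene rose, where 0.121% of all 11578 genes tested fell (14 genes) and 0.112% rose (13 genes). The median log2 fold change, mutant over wildtype, was 0.22 over the 46 genes and 0.01 over all genes tested. With libraries compared directly, over genes with at least 10 counts in stroma, 13 of 57 guidance genes were higher in both mutants than in both wildtypes (22.8%, against 17.8% of all 14769 genes) and 13 were lower in both (22.8%, against 15.6%). None of 31 partner genes tested was called.

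Sema3c in stroma was at 131 CPM (244 counts) and 104 CPM (385 counts) in wildtype and at 35.7 CPM (51 counts) and 39.0 CPM (279 counts) in mutant. Both mutant libraries lay below both wildtype libraries. The log2 fold change was -1.65 (SE 0.33, edgeR adjusted p = 0.0499). The call sat at the threshold: it was lost without mutant 1 (adjusted p = 0.204) and without mutant 2 (0.365), while the log2 fold change stayed between -1.76 and -1.54 over 14 alternatives, 6 of which kept the call. Stroma itself differed in make-up, since matrix stroma was 38.0% and 28.2% of gated stroma in wildtype and 60.4% and 62.2% in mutant, and for that reason both stromal gates were tested separately, after the data were seen.

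In matrix stroma, Sema3c was at 233 and 153 CPM in wildtype and at 27.2 and 42.4 CPM in mutant, with 140 and 151 against 26 and 204 counts. Its log2 fold change was -2.41 (SE 0.37, edgeR adjusted p = 0.00495), it alone was called among 35 guidance genes tested (0.142% of all 9160 genes fell and 0.0546% rose), and the call held without each library in turn. In cortical stroma the values overlapped, at 77.7 and 49.4 CPM in wildtype and 45.5 and 31.1 CPM in mutant, and no guidance gene of 28 tested was called (background 0.114%). The values in matrix stroma and in all stroma share cells, and the difference between them was not tested; nor was the part of stromal make-up in the Sema3c change. The matrix marker list was at 3423 and 2627 CPM in wildtype matrix stroma and at 3382 and 3492 CPM in mutant. Because this list sets the gate, these levels cannot show whether the gated cells of the genotypes were alike.

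Sema3c lies beside other class 3 semaphorins on chromosome 5. With Sema3a, Sema3d and Sema3e it spans 5.35 Mb (chr5:12383385-17730268, GENCODE vM21), a group picked out after the values were seen. The neighbours did not pass the test in stroma: the log2 fold change was 0.21 for Sema3a (edgeR adjusted p = 0.989), 0.46 for Sema3d (0.989) and 0.97 for Sema3e (0.876). Sema3c over all cells was at 91.1 and 58.8 CPM in wildtype and 58.0 and 63.1 CPM in mutant, an overlap, and in ureteric bud and collecting duct it was at 164 and 121 against 111 and 161 CPM.

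None of the Slit and Robo genes passed the test in stroma. Slit3 was at 16.1 and 8.09 CPM in wildtype and 42.6 and 35.2 CPM in mutant stroma, with no overlap (log2 fold change 1.74, SE 0.41, edgeR adjusted p = 0.102). Slit2 was at 32.8 and 22.4 CPM in wildtype and 48.2 and 87.0 CPM in mutant (1.31, SE 0.35, edgeR adjusted p = 0.170). Their receptor Robo2 was at 72.0 and 56.6 CPM in wildtype and 18.2 and 40.1 CPM in mutant (-1.12, SE 0.36, edgeR adjusted p = 0.301), while Robo1 overlapped, at 25.8 and 25.6 against 20.3 and 34.2 CPM. In each library the direction was the same, both Slits higher and Robo2 lower in mutant stroma, and Slit3 and Robo2 did not overlap in matrix or in cortical stroma either. Slit2 overlapped in cortical stroma, where mutant 1 was at 16.5 CPM from 4 counts.

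The stretches before the starts of Slit2, Robo2 and Epha5 are shown because their genotype values are described here and Abd-B Hox proteins are known to bind short AT-rich sites. They are the 150 bases before the gene start, or before an annotated exon that lies ahead of it, in the RefSeq promoter windows (GRCm38.p6), 5′ to 3′ on the gene's strand, at chr5:47982988-47983137 (plus strand), chr16:74411826-74411975 (minus) and chr5:84417383-84417532 (minus). Capitals mark TTTAT or TTTAC on either strand. Sema3c and Slit3 are not shown, since 0 and 18 bases of their windows lay before an annotated exon. Robo2 also had windows farther upstream, at chr16:75447294-75447543 and chr16:75092771-75093020, which held 0 matches each and are not shown.
Slit2: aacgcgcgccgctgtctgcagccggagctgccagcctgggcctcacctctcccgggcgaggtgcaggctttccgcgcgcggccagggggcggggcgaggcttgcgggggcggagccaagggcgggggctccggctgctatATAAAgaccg
Robo2: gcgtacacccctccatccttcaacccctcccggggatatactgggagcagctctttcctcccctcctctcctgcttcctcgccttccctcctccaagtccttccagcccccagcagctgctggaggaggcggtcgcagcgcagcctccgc
Epha5: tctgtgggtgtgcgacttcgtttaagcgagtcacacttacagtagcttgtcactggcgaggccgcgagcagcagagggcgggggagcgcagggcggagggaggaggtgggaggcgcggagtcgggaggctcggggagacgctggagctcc
Of the stretches shown, that of Slit2 held 1 match and the other two none, while the 250-base window of Epha5 held 1 outside its stretch. Over 250 bases before a start, 18 of the 74 windows listed for 58 of the guidance genes held a match (24.3%), against 16821 of all 32851 windows (51.2%). A match is a description of the letters and not of binding.

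Other stromal genes with no overlap included Ntn1, at 31.7 and 28.1 CPM in wildtype against 3.50 and 21.2 CPM in mutant (log2 fold change -1.15, edgeR adjusted p = 0.717), and Sema5b, a transmembrane semaphorin, at 4.30 and 2.16 against 9.79 and 12.0 CPM (1.84, edgeR adjusted p = 0.235). In mutant 1 stroma, 3 counts equal 2.10 CPM. Cortical stroma, where Ntn1 was concentrated, was 26.9% and 21.9% of gated stroma in wildtype and 15.5% and 14.6% in mutant. The Ntn1 log2 fold change was -0.86 in cortical and -1.17 in matrix stroma, neither called. The part of stromal make-up in the Ntn1 values was not tested. Epha3 was at 15.6 and 26.2 against 5.59 and 11.6 CPM (-1.25, edgeR adjusted p = 0.408) and Epha4 at 32.2 and 35.3 against 15.4 and 18.4 CPM (-1.01, edgeR adjusted p = 0.429). Mutant levels of Epha3 and Epha4 lay below wildtype in both libraries. Nrp1, the co-receptor of Sema3a and Sema3c, was at 329 and 228 against 139 and 174 CPM (-0.82, edgeR adjusted p = 0.611). None of these 5 genes passed the test.

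**Figure D2:**
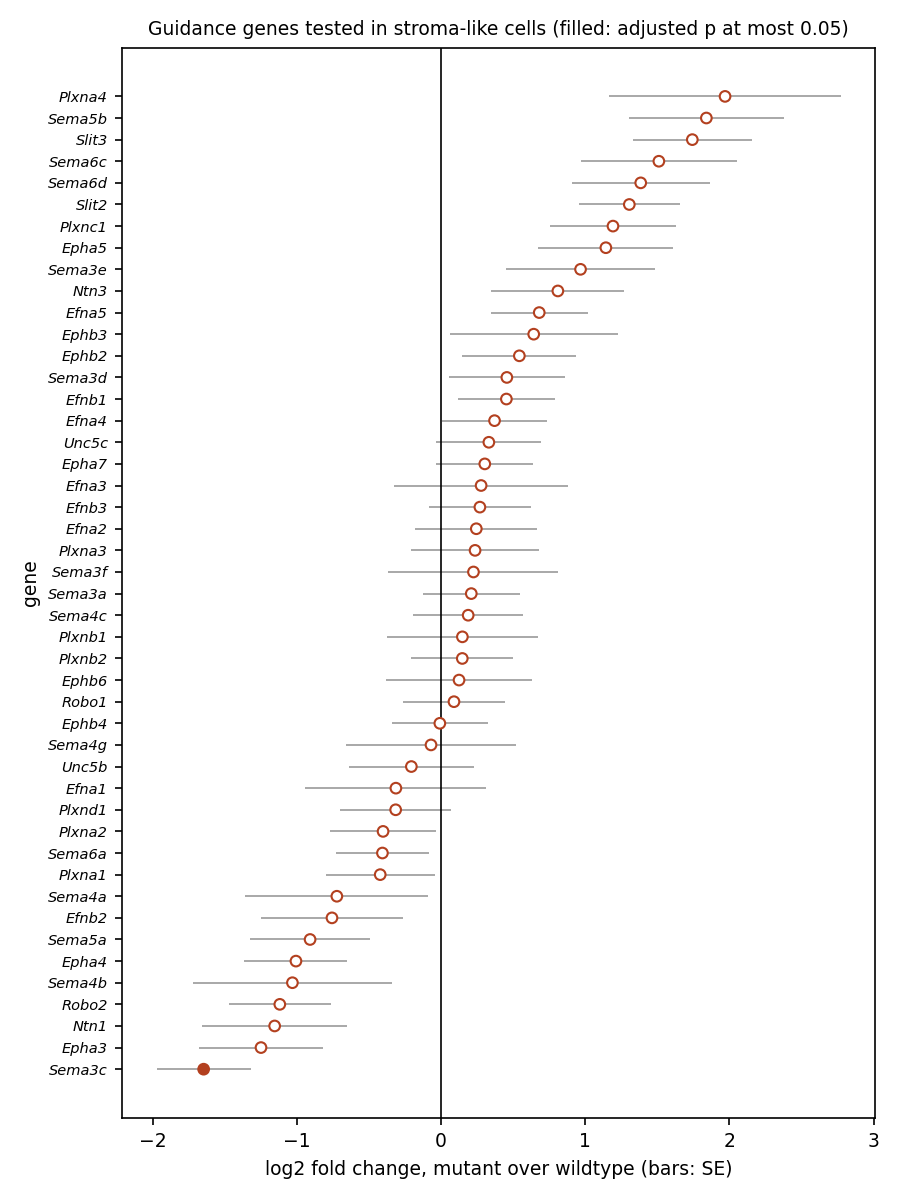
Log2 fold change, mutant over wildtype, of the 46 guidance genes tested in gated stroma, ordered by size, with bars of 1 SE; filled points have an adjusted p of at most 0.05 in edgeR's quasi-likelihood test. Sema3c at -1.65 is the single filled point, and 29 of the 46 genes lie above 0 (63.0%, against 50.9% of all genes tested).

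Over all kept cells, 65 of the 67 genes passed the filter, and Epha5 rose while none fell (0.963% of all 15777 genes tested rose and 0.355% fell). In these sums a change in how many cells of a type were caught and a change in RNA per cell cannot be told apart. Epha5, a receptor of ephrin-A ligands best known from neurons, was at 2.21 CPM (20 counts) and 1.63 CPM (37 counts) in wildtype and 9.22 CPM (28 counts) and 6.40 CPM (110 counts) in mutant. The groups did not overlap (log2 fold change 1.89, SE 0.49, edgeR adjusted p = 0.0444). The call was lost without wildtype 1 (adjusted p = 0.0982), wildtype 2 (0.231) and mutant 1 (0.157) and held without mutant 2 (0.0167).

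Stroma gave 50% to 76.4% of the Epha5 counts of a library, and stroma was 27.3% and 21.3% of kept cells in wildtype and 49.3% and 47.0% in mutant. Within stroma, Epha5 was at 5.37 and 5.12 CPM in wildtype and 11.9 and 11.7 CPM in mutant (log2 fold change 1.14, edgeR adjusted p = 0.616). In matrix stroma alone the log2 fold change was 0.13 (SE 0.56, edgeR adjusted p = 0.9998). In cortical stroma Epha5 did not pass the filter on low counts, and the 4 alternatives that tested it gave 1.61 to 2.07. The neural and glial marker list also stood higher in mutant libraries, at 27.2 and 20.9 against 165 and 231 CPM over all cells, with 8 of its 10 markers higher in both mutants and none at 0 in every library. Cells of the neural gate gave 0 and 1 of the wildtype Epha5 counts and 0 and 10 of the mutant ones. The part of cell make-up in the Epha5 difference was not tested.

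Over all cells, 27 of the 67 genes were higher in both mutants than in both wildtypes, Epha5 included (40.3%, against 24.9% of all 18989 genes with at least 10 counts), and 6 were lower in both (8.96%, against 12.4%). The median log2 fold change was 0.33 over the 65 genes and 0.01 over all genes tested, and 43 of the 65 lay above 0 (66.2%, against 51.0% of all genes tested). Slit3 was closest to the threshold, at 10.4 and 5.78 against 25.4 and 21.2 CPM (1.43, edgeR adjusted p = 0.0582). Robo2 was at 134 and 86.1 against 29.3 and 71.1 CPM (-1.24, edgeR adjusted p = 0.132). The progenitor gate, where its wildtype level was high, held 1 and 13 mutant cells. Cells placed in no lineage gave 22.3% and 27.9% of the wildtype Robo2 counts and 57.3% and 48.4% of the mutant ones. Such cells were 29.8% and 42.6% of kept cells in wildtype and 29.3% and 26.4% in mutant. The part of cell make-up in the Robo2 values was not tested. Robo4 and Sema3g, both high in endothelium, were each higher in both mutants over all cells. The endothelial marker list was at 284 and 239.5 CPM in wildtype against 381 and 664 CPM in mutant, with 4 of its 9 markers higher in both mutants. The part of endothelial cells in the Robo4 and Sema3g values was not tested.

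In the other lineages no guidance gene passed the genotype test in edgeR: 0 of 30 in early nephron (background 0% of 9454 genes), 0 of 21 in endothelium (0.122% of 8219), 0 of 18 in loop and distal tubule (0.0139% of 7204) and 0 of 28 in ureteric bud and collecting duct (0.0977% of 8189). At an unadjusted p under 0.05 the numbers were 0, 3, 1 and 2 in the same order, where 2.88%, 4.81%, 4.19% and 6.22% of all genes tested lay under it, and DESeq2 called none of the guidance genes. In ureteric bud and collecting duct the lowest p-values belonged to Sema6a, a transmembrane semaphorin, at 193 and 101 against 39.9 and 35.4 CPM (log2 fold change -2.00, SE 0.48, edgeR adjusted p = 0.114), and Epha4, at 61.2 and 32.6 against 4.43 and 8.16 CPM (-2.80, SE 0.69, edgeR adjusted p = 0.127). Both were below wildtype in both mutants, which held 28 and 45 cells of this lineage, and the mutant Epha4 levels rest on 1 and 3 counts.

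In endothelium, Sema5b was at 15.5 and 16.5 CPM in wildtype and at 0 and 2.27 CPM in mutant (0 and 5 counts; edgeR adjusted p = 0.443). A count of 0 in mutant 1 allows up to 14.4 CPM, close below the wildtype values. Sema3g, a vascular semaphorin, was at 24.8 and 7.35 against 91.0 and 27.7 CPM (1.72, edgeR adjusted p = 0.913). Nrp2, a co-receptor of class 3 semaphorins known from lymphatic vessels, was at 91.4 and 51.5 against 158 and 280.2 CPM (1.67, edgeR adjusted p = 0.129). The lymphatic marker Prox1 was at 1.55 and 3.68 CPM in wildtype endothelium and at 52.7 and 45.5 CPM in mutant endothelium. Lyve1 was at 4.65 and 12.0 against 38.3 and 75.1 CPM in endothelium. It was higher in the immune gate, at 847 and 327 CPM in wildtype and 577 and 97.8 CPM in mutant. The part of lymphatic cells in the Nrp2 values was not tested.

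The genotype effect of several guidance genes differed between stroma and nephron epithelium. Nephron epithelium joined the early nephron, podocyte, proximal tubule and loop and distal tubule gates. Of 55 guidance genes tested for the difference itself (stroma minus nephron epithelium, edgeR's quasi-likelihood test with library as block), 3 were called higher and 4 lower, against 0.763% and 1.03% of all 12588 genes. Slit2 (1.32, adjusted p = 0.00200), Slit3 (1.79, adjusted p = 0.00365) and Efna5, an ephrin-A ligand (1.04, adjusted p = 0.00605), had the higher effect in stroma. Sema3c (-1.62, adjusted p = 1.05e-12), Robo2 (-1.88, adjusted p = 7.13e-11), Sema5a, a transmembrane semaphorin (-1.07, adjusted p = 0.00922), and Efnb2 (-1.30, adjusted p = 0.0123) had the lower one. Within stroma, the Sema5a log2 fold change took opposite signs in the sub-gates. It was -1.01 in matrix stroma (edgeR adjusted p = 0.932) and 1.26 in cortical stroma (edgeR adjusted p = 0.617). The part of stromal make-up in the Sema5a difference was not tested. The fit has 2 residual degrees of freedom among samples, and the genotype effects in nephron epithelium alone were called for none of 45 guidance genes (0.00889% of all genes called), nor without podocytes for any of 42 (0.00909%). Of 33 partner genes tested, Gpc1, a heparan sulfate proteoglycan that binds Slit, was called lower (-1.13, adjusted p = 0.0141), as was Nrp1 (-0.62, adjusted p = 0.0145).

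Sema3c showed the steadiest difference. In nephron epithelium it was at 148 and 78.7 CPM in wildtype and 102 and 115 CPM in mutant, which overlapped (log2 fold change -0.08), against -1.65 in stroma. The difference was called under all 9 alternatives, between -1.91 and -1.31. None of these left out the proximal tubule gate, where the wildtype Sema3c level was highest. That gate held 33 and 39 wildtype cells and 6 and 30 mutant cells, and its part in the Sema3c difference was not tested. Slit3 in nephron epithelium was at 15.6 and 9.0 against 5.81 and 12.3 CPM (-0.25), and Slit2 at 28.6 and 18.0 against 32.0 and 27.4 CPM (0.29). Both Slits overlapped there, unlike in stroma. Their calls were lost without wildtype 1, wildtype 2 or mutant 2, and Slit2 then ranged down to 0.38.

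**Figure D3:**
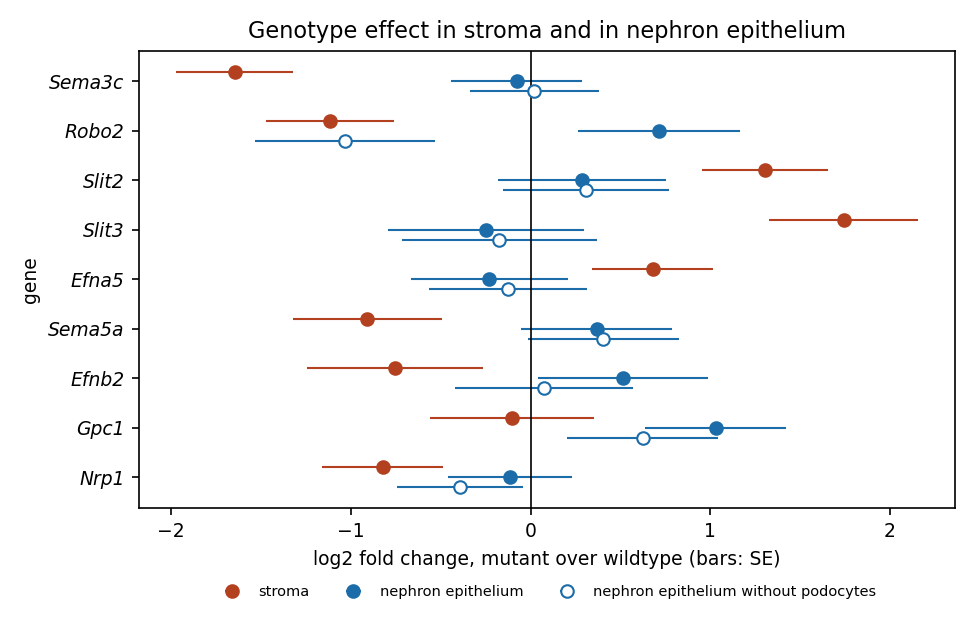
Log2 fold change, mutant over wildtype, with bars of 1 SE, in stroma (red), nephron epithelium (filled blue) and nephron epithelium without podocytes (open blue), for the 7 guidance genes and 2 partners whose genotype effect differed. Robo2 moves from 0.72 to -1.03 in nephron epithelium when podocytes are left out, next to -1.12 in stroma, while Sema3c stays near 0.

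The Robo2 difference did not hold without podocytes. Podocytes were 6.70% and 4.54% of gated nephron epithelium in wildtype and 6.35% and 20.5% in mutant. With podocytes, Robo2 in nephron epithelium was at 44.2 and 27.6 CPM in wildtype and 20.3 and 88.8 CPM in mutant. Without them, a setting chosen once the data had been seen, it was at 28.9 and 18.2 against 6.0 and 13.9 CPM, both mutants below both wildtypes. The difference between lineages then became 0.07 (edgeR adjusted p = 0.994). The calls of Efnb2 (-0.78, adjusted p = 0.587), Gpc1 (-0.53, adjusted p = 0.804) and Nrp1 (-0.25, adjusted p = 0.872) were lost with it, and those of Sema3c, Slit2, Slit3, Efna5 and Sema5a were kept. Without mutant 2, only Sema3c was called among the guidance genes.

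The remaining genes were sparse or showed no call between genotypes. Of the 10 genes with under 100 counts, 2 (Plxnb3 and Ntn5) were not tested over all cells, and Ntn5 had the fewest. Plexin-B2 (Plxnb2), a receptor of class 4 semaphorins, had its highest wildtype level in immune cells, at 77.0 and 80.5 CPM, and was called higher there in the wildtype fit (1.70, edgeR adjusted p = 0.000528; 8.86% of all genes were called higher). Plxnb1 was called higher in ureteric bud and collecting duct, at 47.6 and 46.2 CPM in wildtype and 75.3 and 51.7 CPM in mutant. Sema4g was at 15.2 and 34.8 CPM in wildtype progenitors and was called higher there in the same fit (3.01, edgeR adjusted p = 1.33e-11), as was Unc5c, at 59.8 and 40.7 CPM (2.92, edgeR adjusted p = 1.9e-09).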

How the data were processed

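Counts per gene and cell barcode were deposited by the authors for each library, all whole and not normalized. Per the submitters' processing notes, Bowtie2 2.2.7 and mm10 were used. The annotation, the use of strand and the collapsing of molecular identifiers are not given in the sources used here, so intervals and floors cover counting error only, and reads of overlapping or antisense genes may be shared. Kept cells had 500 genes or more and no more than 10% mitochondrial counts; the highest 5% of Scrublet doublet scores per library were left out (621 barcodes), and 108 cells with a haemoglobin share above 10% were set apart. A cell entered a lineage with at least 3 counts from at least 2 markers and more than 2 times the counts of every other list, and 7702 of 11778 cells did. Stroma cells were divided by at least 2 counts of the cortical or matrix list and more than of the other.

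The replicate is the library, and summed counts were fitted over all genes by the robust quasi-likelihood test of edgeR 4.0.16 under R 4.3.3, after TMM scaling and the filterByExpr filter. P-values were adjusted by Benjamini-Hochberg, and 0.05 was the threshold. An exact permutation test of 2 against 2 libraries cannot reach this threshold and was not used. Named genes were those past a genotype or lineage-difference test (else the 3 with the smallest p), the 3 with the highest CPM per family, up to 3 per lineage with the largest log2 difference among those called higher, 43 of the 67 in all. Of the partner list, the receptors Nrp1, Nrp2, Dcc and Neo1 and up to 6 genes past such a test were named; other genes named were chosen after their values were seen. The members, marker lists, 41 partner genes and tests were chosen with earlier results of these data known. Positions are from GENCODE vM21. Python 3.11.15, scanpy 1.11.5 and DESeq2 1.42.0 were also used. The statistics were tested on simulated data. Alternatives were DESeq2, no filter, a replicate block, each library left out, other cell filters and other gates; a crossed block, the Tcf21 gate, the nephron epithelium without podocytes, the stromal sub-gates and the wildtype fit were added later, with the data in view.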

Additional observations from a re-analysis of the deposited data

Results flagged for a closer look

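The test of the difference between lineages picked out 7 guidance genes and 2 partners whose genotype effect in stroma differed from that in nephron epithelium. As log2 values, stroma minus nephron epithelium, these were -1.62 for Sema3c, -1.88 for Robo2, 1.32 for Slit2, 1.79 for Slit3, 1.04 for Efna5, -1.07 for Sema5a, -1.30 for Efnb2, -1.13 for Gpc1 and -0.62 for Nrp1. The share of podocytes in nephron epithelium was higher in mutant 2 than in the other libraries, and the values without podocytes are given with the comparison.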

How the results depend on the processing

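The lineage calls were the most stable: for each of the 5 lineages the number of guidance genes called stayed within 1.5 times under every alternative run. Over all cells, the 1 guidance gene called became 0 with DESeq2, without the filter on low counts, without the mitochondrial limit, with the replicate block and with the crossed block, and 2 to 3 when a library was left out. In stroma, 1 became 0 with the gate at 2 marker counts, with Tcf21 outside the stroma list, without the doublet step, without the mitochondrial limit, with the replicate block and with the crossed block, 2 without the filter, and 0 to 3 when a library was left out. In ureteric bud and collecting duct, 0 became 2 without the filter and 0 to 2 when a library was left out, in endothelium 0 to 1, and in matrix stroma 1 to 2. For the difference between stroma and nephron epithelium, 7 became 1 to 8 when a library was left out. The Robo2 value of that difference turned to 0.073 without podocytes. With a library left out, the Gpc1 value ran from -1.78 to 0.10, turning without wildtype 2. The Sema6d change in nephron epithelium ran from -0.026 to 1.79, and from -0.025 to 1.87 without podocytes, turning without mutant 2 in both. The cause of these changes was not tested, beyond the fewer genes and samples that some alternatives leave.

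The labels number the libraries 1 and 2 in each genotype but do not say that a number pairs them, and deviations of same-numbered libraries correlated at 0.08 over 15777 genes. With the replicate block the stromal Sema3c change was -1.64 (edgeR adjusted p = 0.205) and the Epha5 change over all cells 1.87 (0.0682). Mutant 1, with 810 cells, limits the depth in the smaller lineages. In the wildtype fit, leaving out a library leaves no residual degrees of freedom, so this was not run.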
